A study of Mus musculus with 2 samples.

Results

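Interferon-stimulated genes (ISGs) are the genes that cells switch on when interferon reaches them. The set described here holds 34 such genes, picked by symbol. All 34 were rows of the single-cell table, out of 17758 genes, and 33 were rows of the bulk table, out of 16906. Mx1 was not analysed in bulk.

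Both samples came from peripheral mouse lung at postnatal day 3, and each stood for a group of 1. The single-cell library (10x Chromium, 3′ tags) was made from sorted cells of wild-type lung. The sources used here give neither the sort gate nor the strain. The bulk RNA-seq library was made from PDGFRA+ cells of Pdgfra-H2BGFP lung, in which the Pdgfra locus drives a nuclear green fluorescent protein, so the sort takes the cells that use this locus, mostly fibroblasts. Both were labelled as control lungs, and neither had an infection or interferon treatment in its labels. Whether animals were pooled is not stated.

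After filtering, 10199 cells remained, with a median of 2012 detected genes per deposited cell. They formed 34 clusters, named from marker genes and therefore called "-like". Immune-like cells numbered 6504, mesenchymal-like cells 2064, endothelial-like cells 1025 and epithelial-like cells 465. The 8 immune markers in the check were at 107 to 12350 CPM in immune-like cells, and Cldn5 was at 2848 CPM in endothelial-like and Col1a2 at 2958 CPM in mesenchymal-like cells. A level in CPM is the summed value of a cell type, or the bulk read count, scaled to a total of 1000000. Tags come from the 3′ end, so single-cell levels are not scaled by length. With 1 library per group no difference between groups or types was tested, and cells of 1 library are not replicates. All intervals cover counting error only.

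Type I interferons (alpha and beta) bind the receptor pair IFNAR1 and IFNAR2, and type II interferon (gamma) binds IFNGR1 and IFNGR2. Both routes work through the kinases of the JAK family. The type I route activates STAT2, which works with IRF9 in a complex that binds a DNA element called the interferon-stimulated response element (ISRE) in the promoters of ISGs. Many ISGs also have a resting level without any infection, and that resting level is what an untreated lung shows. In the lung these genes are best known for limiting respiratory viruses.

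The ISRE is the DNA element that ties these genes to the pathway, so stretches that carry it are shown first. The RefSeq promoter table (GRCm38.p6) gives a window from 250 bases before to 50 bases after each gene start. It held a window for 26 of the 34 members. The core letters GAAANNGAAA were searched on both strands, with overlapping matches allowed. They were present for 16 of the 26 members, against 3.99% of all 27025 genes with a window. The 6 stretches below were taken from members with matches upstream of the start and outside the annotated gene. Capitals mark every base of a match, and TTTCNNTTTC is the same core read on the opposite strand.

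Isg15: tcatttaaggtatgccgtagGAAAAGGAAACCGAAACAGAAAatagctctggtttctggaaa
Ifit1: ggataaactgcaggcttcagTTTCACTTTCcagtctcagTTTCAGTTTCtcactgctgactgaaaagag
Ifit3: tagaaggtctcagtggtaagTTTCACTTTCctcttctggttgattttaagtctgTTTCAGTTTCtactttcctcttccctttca
Rsad2: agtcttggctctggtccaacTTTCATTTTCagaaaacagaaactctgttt
Bst2: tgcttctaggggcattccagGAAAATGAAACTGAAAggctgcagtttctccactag
Igtp: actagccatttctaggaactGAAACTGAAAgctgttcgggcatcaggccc

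These stretches lie at chr4:156200855-156200916 (minus strand) for Isg15, chr19:34640765-34640833 (plus) for Ifit1 and chr19:34583353-34583436 (plus) for Ifit3. The Rsad2 stretch is at chr12:26456543-26456592 (minus), that of Bst2 at chr8:71537567-71537622 (minus) and that of Igtp at chr11:58199502-58199551 (plus). Isg15 held 3 overlapping matches starting 78, 72 and 66 bases before the start. Ifit1 held 2 separate matches, at 104 and 85 bases before it. The other members with a match were Oas1a, Oas3, Stat2, Ifih1, Ddx58, Trim30a, Ifitm3, Eif2ak2, Gbp2 and Irgm1. The letters were not in the windows of Ifit2, Oasl1, Oasl2, Irf7, Irf9, Ifi35, Ifi44, Trim25, Xaf1 and Cmpk2. A second element, the gamma-activated site TTCNNNGAA, which reads the same on both strands, was in the windows of 7 of the 26, against 9.55% of all genes. Those 7 were Ifit2, Oas1a, Ifi35, Bst2, Ifitm3, Eif2ak2 and Igtp. A match is a run of letters and was not tied to any binding here.

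Pooled over the types of each compartment, the members' baseline was higher in immune-like and endothelial-like cells than in mesenchymal-like cells. Of the 34 members, 20 had a log2 ratio (1 CPM added to both sides) of 1 or more in immune-like over mesenchymal-like cells, against 14.2% of the 15397 genes with a summed value of at least 20. Only Ifit2 was at -1 or less, against 27.9% of those genes. The median log2 ratio was 1.16 over the members and -0.34 over all genes. Endothelial-like over mesenchymal-like cells gave 19 members at 1 or more, against 8.74% of genes, and again only Ifit2 at -1 or less, against 15.8%. The medians there were 1.16 and -0.11. With 10 CPM added in place of 1, which shrinks the ratios of low genes, 8 members were at 1 or more in immune-like over mesenchymal-like cells, against 7.92% of genes, and 1 at -1 or less, against 13.6%. In endothelial-like over mesenchymal-like cells 11 were at 1 or more, against 5.33%, and 0 at -1 or less, against 6.94%.

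Between immune-like and endothelial-like cells the members went both ways. A log2 ratio of at least 1 was found for 8 (23.5% of members), against 13.7% of genes. One of -1 or less was found for 7 (20.6%), against 19.7%, so the 7 is near the share of all genes. The median was -0.23 beside -0.20 for all genes. The 8 higher in immune-like cells were Irf7, Zbp1, Gbp2, Trim25, Oas1a, Oas3, Rsad2 and Mx1. The 7 higher in endothelial-like cells were Bst2, Rtp4, Xaf1, Irgm1, Oasl2, Ifi44 and Eif2ak2. With 10 CPM added these counts were 2 (5.88%), against 7.27% of genes, and 4 (11.8%), against 9.79%, both near the shares of all genes.

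Across the 20 types of at least 50 cells, 21 members had their highest level in an immune-like type, against 40.8% of genes. Classical monocyte-like cells (304 cells) had the highest level of 10 members, and they had 22 members at 10 CPM or more. Non-classical monocyte-like cells (469 cells) ranked in the top 3 types for 14 members. Large vessel endothelial-like cells (144 cells) did so for 11, and aerocyte capillary-like and conventional dendritic-like cells for 10 each. These counts for single types were not set beside all genes. Whether a type stands out for the members more than for genes in general was not tested. The median member level was 21.1 CPM in classical monocyte-like cells and 17.0 CPM in large vessel endothelial-like cells. It was 2.10 CPM in lipofibroblast or matrix fibroblast-like cells (795 cells) and 2.63 CPM in myofibroblast-like cells (657 cells). Not every immune-like type was above every mesenchymal-like one. Basophil or mast cell-like, neutrophil-like and natural killer-like cells were at 3.75, 5.40 and 5.51 CPM, below smooth muscle-like cells at 5.61 CPM. The other immune-like types were above all mesenchymal-like types. The heat map of levels by type shows these bright monocyte columns and the darker mesenchymal ones.

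**Figure D1:**
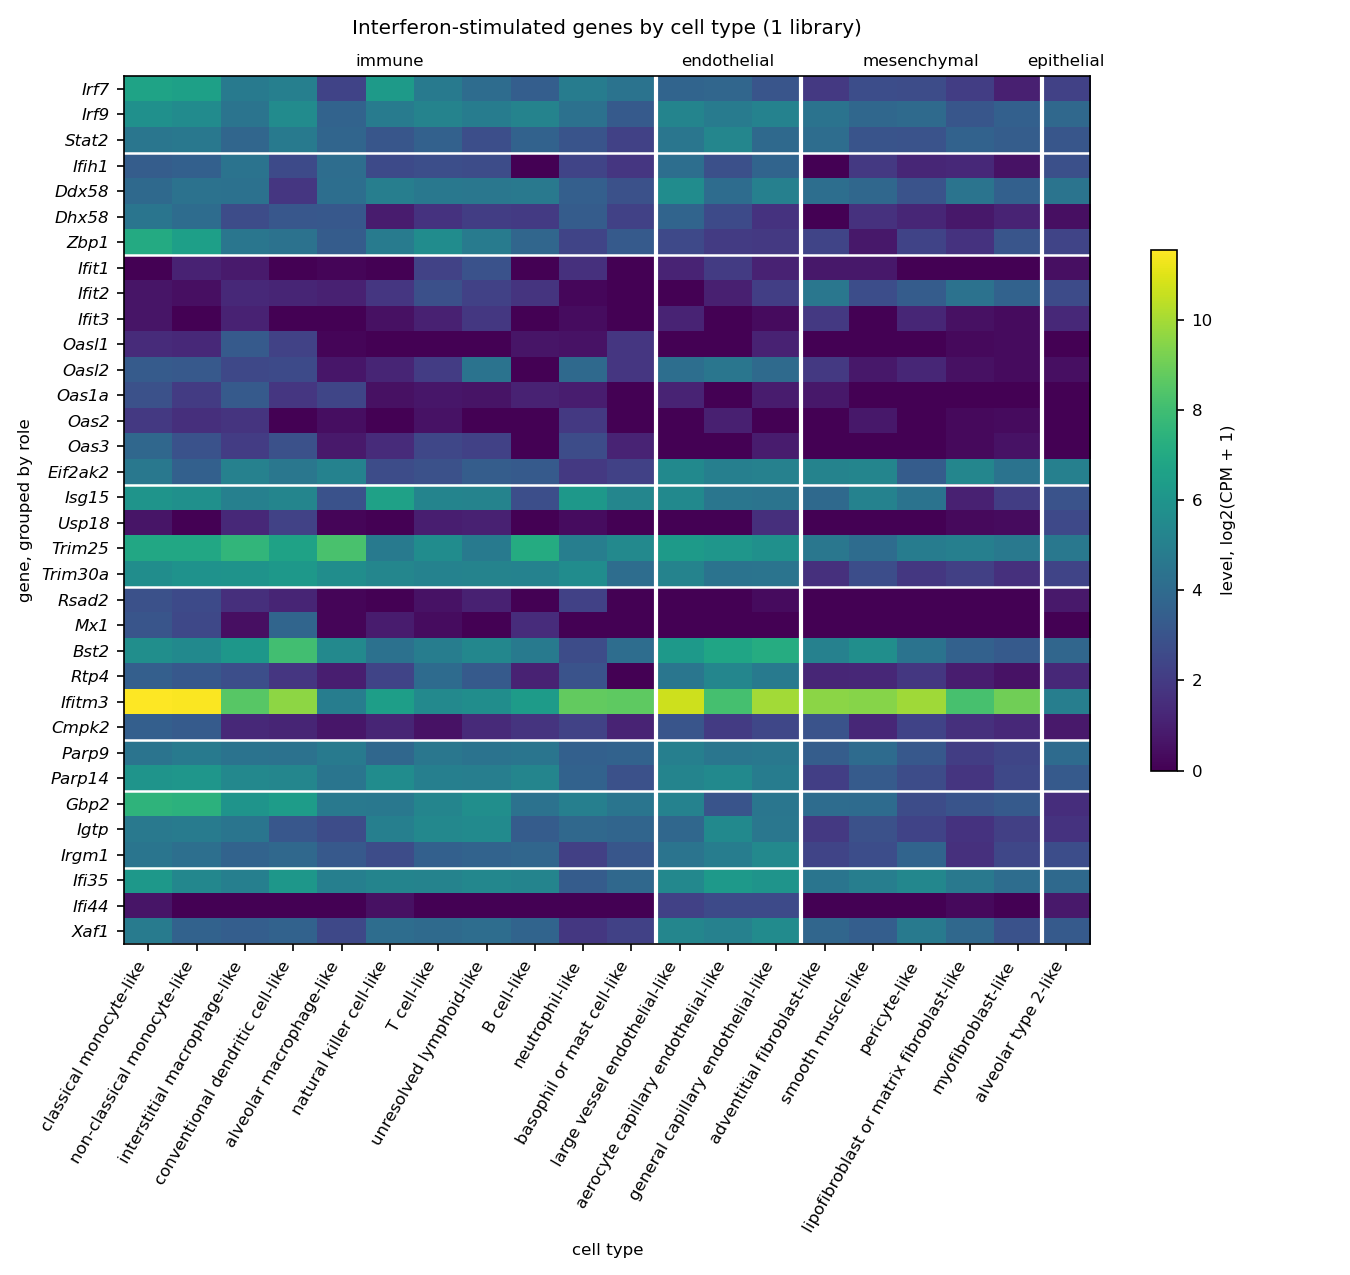
Level of each of the 34 interferon-stimulated genes (rows, grouped by role) in each cell type of at least 50 cells (columns, grouped by compartment), as log2(CPM + 1) in 1 library. Ifitm3 is brightest, at 2999 CPM in classical monocyte-like cells, and the Oas and Ifit rows are dark nearly everywhere, with Ifit2 brighter in the mesenchymal columns.

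Free RNA from broken cells gives values in cells that do not express a gene. Sftpc, a surfactant gene of alveolar type 2 cells, had a value above 0 in 94.0% of immune-like and 89.2% of mesenchymal-like cells (median detected genes 1769 and 2562). In immune-like cells Scgb1a1, of airway secretory cells, was at 121 CPM and Hba-a1, of red blood cells, at 1.52 CPM. The levels of 8 immune markers (Ptprc, Laptm5, Coro1a, Tyrobp, Lyz2, Cd79a, Cd3e and S100a8) in mesenchymal-like cells were 3.65% to 9.09% of those in immune-like cells. Of the members, 28 had a mesenchymal share above that range. The 6 at or below its upper end were Irf7 (8.98%), Trim30a (6.71%), Oas3 (6.45%), Oas1a (3.18%), and Rsad2 and Mx1, which were at 0. For those 6 the mesenchymal level is no higher than the level that immune transcripts reach there. In endothelial-like cells the same markers were at 2.94% to 9.80% of their immune level, and only Mx1, at 0, was not above that. Some members above these ranges rest on very few cells. In mesenchymal-like cells Ifi44 had a value in 1 cell, and Ifit1, Oasl1 and Usp18 in 2 each. In endothelial-like cells Rsad2 and Oas2 had a value in 1 cell each, and Ifit3 and Oas3 in 2 each. For these members a level above the range is not established.

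Of the transcription factors among the members, Irf7 and Irf9 were highest in classical monocyte-like cells and Stat2 in aerocyte capillary-like cells. Irf7, the factor that amplifies type I interferon production, was at 102 CPM in classical and 93.8 CPM in non-classical monocyte-like cells. It had a value above 0 in 40.8% of the classical ones (exact Clopper-Pearson 95% interval 35.2% to 46.5%). Natural killer-like cells followed at 76.7 CPM, and myofibroblast-like cells were lowest at 1.001 CPM. Irf9, the DNA-binding partner of STAT2, was less uneven. It was at 26.2 CPM in immune-like, 32.4 in endothelial-like and 11.1 in mesenchymal-like cells, with the highest type at 54.0 CPM (classical monocyte-like). Stat2 was at 12.05, 19.7 and 10.5 CPM in the same order, and highest at 38.1 CPM in aerocyte-like cells, the thin capillary cells of the gas exchange surface. Of these 3 factors, Irf7 differed most between types.

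The sensors of foreign RNA and DNA did not share one pattern. Zbp1, a sensor of Z-form nucleic acids that can trigger cell death, was at 132 CPM in classical monocyte-like and 91.9 CPM in non-classical monocyte-like cells. Its compartment levels were 30.9 CPM in immune-like, 3.23 in endothelial-like and 4.03 in mesenchymal-like cells. Ddx58, which encodes the RNA sensor RIG-I, had 18.0, 31.4 and 15.3 CPM in those 3 compartments and was highest in large vessel endothelial-like cells at 48.6 CPM. Ifih1, which encodes the sensor MDA5, had 9.12, 11.6 and 1.15 CPM, with interstitial macrophage-like cells highest at 19.8 CPM. Dhx58, for the regulator LGP2, had 7.18, 4.30 and 0.988 CPM, and 21.4 CPM in classical monocyte-like cells. Ddx58 was thus the sensor with the smallest range between compartments, and Zbp1 the most immune-weighted.

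Most of the classical effectors that bind RNA were close to silent. Ifit1 and Ifit3, which bind viral RNA ends and the complex that holds them, had levels of 1.55 and 0.535 CPM in immune-like cells and were detected in 46 and 30 of 10199 cells. Oas1a, Oas2 and Oas3 make the oligoadenylate messenger that activates RNase L. They were at 2.59, 1.13 and 3.83 CPM in immune-like cells, and none was above 0.717 CPM in endothelial-like cells. The highest type for Oas3 was classical monocyte-like at 13.5 CPM. Oasl1, a relative that restrains Irf7 translation, was at 1.098 CPM in immune-like cells, detected in 27 cells. Oasl2 stood apart, at 15.9 CPM in endothelial-like, 5.997 in immune-like and 0.741 in mesenchymal-like cells, with aerocyte-like cells highest at 22.1 CPM. Eif2ak2, which encodes the RNA-activated kinase PKR, was not low, at 15.8, 35.1 and 29.9 CPM in immune-like, endothelial-like and mesenchymal-like cells.

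Ifit2 was the one member with a mesenchymal level more than 2-fold above those of immune-like and endothelial-like cells. It was at 14.9 CPM in mesenchymal-like cells, 2.03 in immune-like and 2.51 in endothelial-like cells, a log2 ratio of -2.39 for immune-like over mesenchymal-like. Adventitial fibroblast-like cells had the highest level, 22.7 CPM, with a value above 0 in 13.9% of 238 cells (9.74% to 18.9%). Lipofibroblast or matrix fibroblast-like cells followed at 19.5 CPM and myofibroblast-like cells at 11.3 CPM, while large vessel endothelial-like cells were at 0. Ifit2 lies beside Ifit3 and Ifit1 on chromosome 19 (mm10, GENCODE M21: Ifit2 at chr19:34550694-34576419, Ifit3 at chr19:34583531-34588731, Ifit1 at chr19:34640871-34650009, all on the plus strand). In the mesenchymal-like cells Ifit3 was at 0.659 CPM and Ifit1 at 0.165 CPM, so these neighbours did not share the level of Ifit2. Ifit3 has a close copy, Ifit3b, and the Oas, Gbp and Trim30 families also hold close relatives. The sources used here do not say how shared reads were assigned, so levels of these members are uncertain to that extent.

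The ubiquitin-like modifier and the ligases were spread over different immune-like types. Isg15, an interferon-induced modifier that an enzyme cascade attaches to other proteins, was highest in natural killer-like cells at 96.2 CPM, detected in 30.1% of 438 cells (25.9% to 34.7%). Neutrophil-like cells were at 69.6 CPM with detection in 12.5% of 1393 cells (10.8% to 14.3%), and their median of detected genes was 1008 against 1514 in natural killer-like cells. Isg15 was at 1.11 CPM in lipofibroblast or matrix fibroblast-like cells. Usp18, the protease that removes ISG15 and dampens the receptor, was at 0.535 CPM in immune-like cells and, among types of at least 50 cells, was highest in alveolar type 2-like cells at 4.86 CPM. In all 465 epithelial-like cells, which include 24 ciliated-like cells, it was at 7.77 CPM. Trim25, a ubiquitin ligase of the RIG-I route, was highest in alveolar macrophage-like cells at 302 CPM, with a value above 0 in 75.1% of 1391 cells (72.7% to 77.3%). Interstitial macrophage-like cells had 194 CPM and smooth muscle-like cells 16.1 CPM. Trim30a was at 45.4 CPM in immune-like, 22.6 in endothelial-like and 3.05 in mesenchymal-like cells, the member with the highest immune over mesenchymal log2 ratio, 3.52.

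Among the effectors at membranes, Ifitm3 and Bst2 were both higher in endothelial-like than in immune-like cells. In epithelial-like cells they were at 38.5 and 15.2 CPM. Ifitm3 keeps viruses from fusing with endosomes. It was at 519 CPM in immune-like, 952 in endothelial-like and 510 in mesenchymal-like cells, so the immune and mesenchymal compartments were nearly level. Inside the immune compartment it ranged from 28.4 CPM in alveolar macrophage-like to 2999 CPM in classical monocyte-like cells, of which 99.3% had a value above 0 (97.6% to 99.9%). Bst2, the tetherin that holds budding virions on the cell, was at 126 CPM in endothelial-like, 37.1 in immune-like and 18.1 in mesenchymal-like cells. Its highest type was the conventional dendritic-like cluster at 262 CPM. In that cluster 6 of 129 cells had at least 3 of 6 markers of plasmacytoid dendritic cells and held 43.4% of its Bst2 value, and the other 123 cells were at 155 CPM. Of those 123, 1 cell had a value of 19 of their 116, and without it the level was 131 CPM, below that of general capillary-like cells at 140 CPM. That split was added after the values were seen.

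The other 4 members of this group were Rsad2, Mx1, Cmpk2 and Rtp4. Rsad2, which encodes viperin, an enzyme that makes a chain-terminating nucleotide, was at 1.69 CPM in immune-like and 0.179 in endothelial-like cells, with classical monocyte-like cells at 6.19 CPM. It was at 0 in mesenchymal-like cells, and against a floor of 3 summed values there the immune level was at least 6.84-fold higher. Mx1, a GTPase that blocks influenza virus, was at 1.24 CPM in immune-like cells, at least 5.02-fold above the same floor, and highest in conventional dendritic-like cells at 12.8 CPM. With both genes at that floor, 19 members had a log2 ratio of at least 1 in immune-like over mesenchymal-like cells and the median was 1.12. Cmpk2, a nucleotide kinase and the genomic neighbour of Rsad2, was at 2.53, 4.48 and 2.47 CPM in immune-like, endothelial-like and mesenchymal-like cells. Rtp4, a chaperone of receptors with antiviral activity, was endothelial-weighted at 26.3 CPM against 6.59 in immune-like and 0.988 in mesenchymal-like cells.

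The interferon-inducible GTPases, which defend cells against intracellular parasites and bacteria, had their highest levels in 3 different types. Gbp2 was at 179 CPM in classical and 170 CPM in non-classical monocyte-like cells, and at 51.2, 21.5 and 9.47 CPM in immune-like, endothelial-like and mesenchymal-like cells. Irgm1 was at 41.7 CPM in general capillary-like cells, and at 35.1 CPM in endothelial-like, 9.77 in immune-like and 4.12 in mesenchymal-like cells. Igtp was at 25.3, 21.1 and 3.29 CPM in endothelial-like, immune-like and mesenchymal-like cells. Its highest type, at 45.2 CPM, was an unresolved lymphoid-like cluster of 327 cells with Trdc, of gamma-delta T cells, and Areg among its leading genes. Aerocyte-like cells followed at 43.1 CPM and T cell-like cells at 40.9 CPM.

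The ADP-ribosyltransferases Parp9 and Parp14 had near-equal levels in immune-like and endothelial-like cells. Parp14 was at 31.0 and 31.9 CPM there and at 4.28 CPM in mesenchymal-like cells. Parp9 was at 20.05, 24.6 and 6.09 CPM. Of the last 3 members, Ifi35 was at 32.04, 60.7 and 23.1 CPM in immune-like, endothelial-like and mesenchymal-like cells, with aerocyte-like cells highest at 76.3 CPM. Xaf1, a pro-apoptotic protein, was at 10.1, 41.8 and 11.6 CPM. Ifi44 was detected in 23 cells in all and was at 4.84 CPM in endothelial-like against 0.0563 CPM in immune-like cells.

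The non-classical monocyte-like cluster held cells with and without neutrophil transcripts. Of its 469 cells, 253 carried them. S100a8 was at 30554 CPM in the 253 and 754 CPM in the other 216, a difference that a split by neutrophil transcripts brings with it. Both groups had the monocyte markers Treml4 (302 and 456 CPM) and Ace (304 and 497 CPM). Whether the groups are different kinds of cell was not tested. Without those 253 cells, Irf7 was at 105 CPM, Zbp1 at 98.0, Gbp2 at 194 and Ifitm3 at 3355 CPM. In the 253, these were at 85.3, 87.3, 151 and 2459 CPM. Isg15 went the opposite way, at 39.2 CPM in the 216 and 65.2 CPM in the 253. The part of the neutrophil transcripts in these levels was not tested.

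The other genes of the pathway were taken from lists by role. Of 10 interferon genes listed, Ifng and Ifnk had single-cell values. Ifng, type II interferon, had a summed value of 270 in 139 cells and was highest in natural killer-like cells at 81.4 CPM. Ifnk had a summed value of 53 in 46 cells and no type above 4.02 CPM. The other 8, Ifnb1 and the alpha genes among them, were not analysed here. Of the type I receptor, Ifnar1 was at 81.4, 60.2 and 47.6 CPM in immune-like, endothelial-like and mesenchymal-like cells and 10.6 CPM in epithelial-like cells. By type it ran from 10.5 CPM (alveolar type 2-like) to 136 CPM (unresolved lymphoid-like). Ifnar2 was at 63.5, 58.8, 52.4 and 19.8 CPM in the same 4 compartments and ran from 19.4 CPM (alveolar type 2-like) to 135 CPM (non-classical monocyte-like). Ifngr1 was immune-weighted at 363, 120 and 65.8 CPM, with natural killer-like cells at 1034 CPM. Ifngr2 was lowest in those cells, at 9.75 CPM, and at 79.7, 49.1 and 49.2 CPM in the 3 compartments. Il10rb, a shared chain of the type III receptor, was at 58.9, 37.3 and 23.0 CPM. Its partner Ifnlr1 was at 1.44 CPM in immune-like and 5.65 CPM in epithelial-like cells. By type Ifnlr1 was highest in neutrophil-like cells at 6.18 CPM, with alveolar type 2-like cells next at 5.98 CPM. Of the 6 receptor genes, 3 had a log2 ratio of at least 1 in immune-like over mesenchymal-like cells, against 14.2% of all genes. In endothelial-like over mesenchymal-like cells 0 did, against 8.74%.

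Interferon regulatory factors outside the members had types of their own. Irf8 was at 1246 CPM in natural killer-like cells, Irf5 at 190 CPM in classical monocyte-like cells, Irf4 at 79.9 CPM in B cell-like cells and Irf1 at 386 CPM in neutrophil-like cells. Irf2 and Irf3 were highest in aerocyte-like cells at 143 and 76.3 CPM. Of the 11 sensors and adaptors with a summed value of at least 20, 7 had a log2 ratio of at least 1 in immune-like over mesenchymal-like cells and 1 in endothelial-like over mesenchymal-like cells. For 6 brakes of the pathway these numbers were 2 and 1. The same shares of all genes were 14.2% and 8.74%.

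Interferon-stimulated genes outside the 34 were counted from a second list. Of 82 with a summed value of at least 20, 53 were at 1 or more in immune-like over mesenchymal-like cells, against 14.2% of all genes. At -1 or less there were 2, against 27.9%. In endothelial-like over mesenchymal-like cells these numbers were 45 and 2, against 8.74% and 15.8% of all genes. In immune-like over endothelial-like cells they were 21 and 18, against 13.7% and 19.7%, so the 18 is near the share of all genes. The 6 with the highest summed value were B2m, Ccl5, Ifitm2, Ly6e, Samhd1 and Ifitm1. Ly6e was at 817 CPM in endothelial-like, 451 in immune-like and 33.7 in mesenchymal-like cells. Samhd1, which depletes the nucleotides of viruses, was at 1386 CPM in non-classical monocyte-like cells. B2m, the light chain of MHC class I, was at 2921 CPM in the same type. Ccl5 was at 15414 CPM in natural killer-like cells and Ifitm1 at 13537 CPM in basophil or mast cell-like cells. Ifitm2 was near level, at 694, 895 and 825 CPM in immune-like, endothelial-like and mesenchymal-like cells.

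The second question was whether a few cells carried most of this baseline. For the sum of the members they did not. Ifitm3 and Bst2 were left out of this sum as abundant members, which leaves 32. Trim25 stayed in, with 5246 of the total of 26675, though its summed value is above that of Bst2 (2332). Shares without Trim25 were not computed. Over the 32 members, the highest 1% of cells (102 cells) held 7.33% of the value and the highest 5% (510 cells) held 22.5%. The highest 1751 cells, 17.2% of all, held 50%. The median cell had a summed value of 2, 24.5% of cells had 0 and the highest had 58. With all 34 members the highest 5% held 26.1%.

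Of the named types, classical monocyte-like cells gave the most of the 102 highest cells. Of these, 27 were classical monocyte-like, which are 2.98% of all cells. Non-classical monocyte-like cells (4.60% of all cells) gave 18 and T cell-like cells (11.3%) gave 16. Endothelial-like cells (10.05%) gave 11, near their share of cells, and mesenchymal-like cells (20.2%) gave 0. The median of detected genes was 2294 in the 102 cells against 2049 in the rest. Within types the highest 5% of cells held 13.6% of the value in alveolar macrophage-like cells, 17.7% in classical monocyte-like cells, 29.0% in neutrophil-like cells and 28.8% in basophil or mast cell-like cells. In neutrophil-like cells 49.0% had no value at all, beside 3.95% of classical monocyte-like cells. Median detected genes were 1008 and 2174 in these types, and the part of detection in these shares was not tested, since the deposited values do not allow thinning.

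The number of members detected per cell had a long right tail. Of the 32, the median cell had 1, and 71 cells (0.696%) had 10 or more. Of those 71, 18 were classical monocyte-like, 13 non-classical monocyte-like and 13 T cell-like, and 0 were in the mesenchymal-like types, whose highest cell had 6. A single interstitial macrophage-like cell had 27 of the 32, and the next cell had 16. Its summed value was 58, 0.217% of the total, from 2888 detected genes and a mitochondrial share of 1.65%. It had a value of 10 for Isg15, 9 for Irf7 and 5 for Rsad2, and outside the members 53 for Ifi27l2a, while Cxcl10 and Ifng were at 0. The 5 members at 0 in it were Mx1, Oasl1, Oas2, Ifi44 and Eif2ak2. Of the macrophage markers, Apoe was at 77, Csf1r at 2 and C1qa at 0. This cell was singled out after its values were seen. Leaving it out moved by 1.5 times neither the compartment counts, nor the share of the highest 5% of cells, nor the picked-cell count given below.

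**Figure D2:**
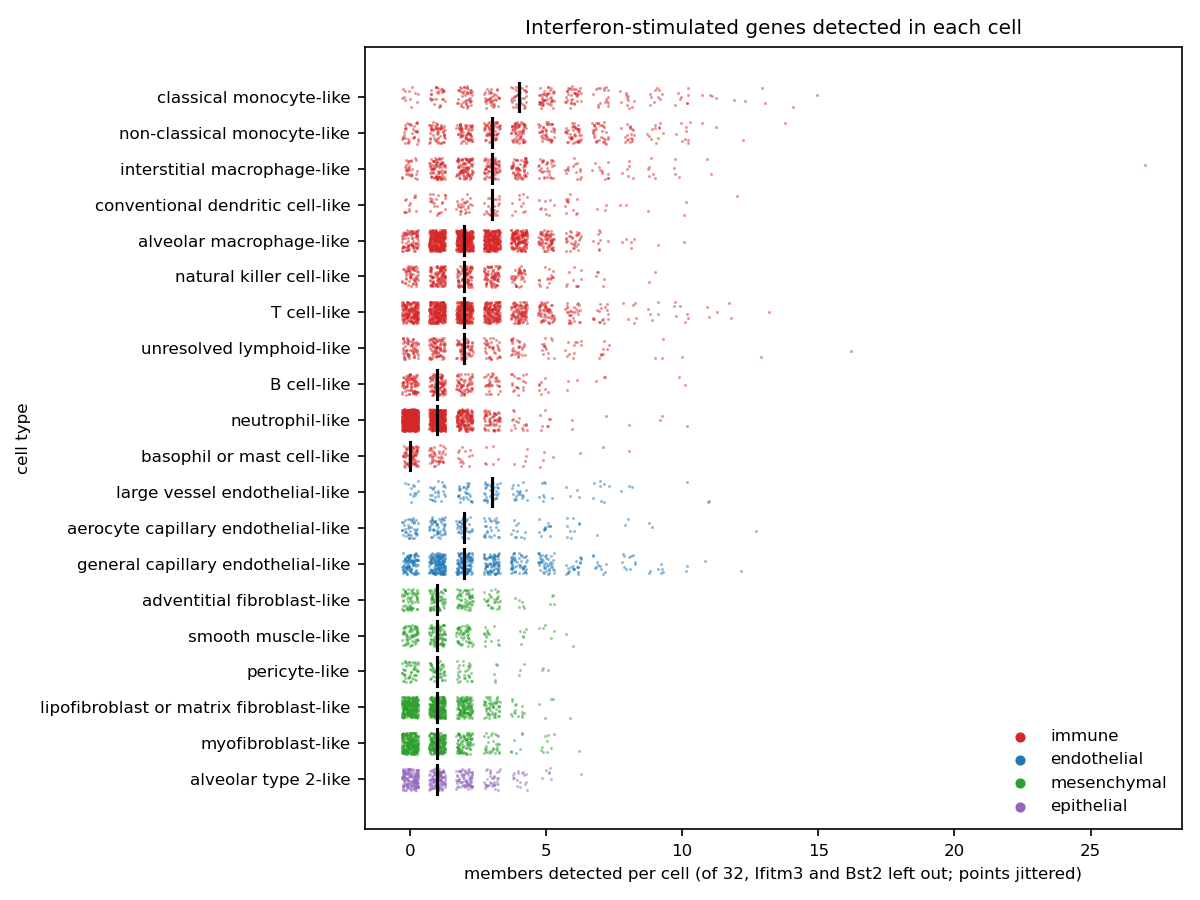
Number of interferon-stimulated genes detected in each cell (of 32, x axis) by cell type (y axis), 1 jittered point per cell, colour by compartment, black bar the median. The classical monocyte-like median is 4, mesenchymal-like cells reach 6 at most, and 1 interstitial macrophage-like cell stands at 27.

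For single genes the answer depended on the gene. Genes found in few cells are concentrated by necessity, so each member's mean value per detecting cell was set beside genes detected in a like number of cells (within 10%). The match was on cell number only. A value of 2 made up 32.5% of the values above 0 in the 1000 cells with fewest genes and 12.4% in the 1000 with most. This mean therefore also depends on which cells detect a gene, and that part was not tested. Ifitm3 had 5.33 per detecting cell, in 56.2% of cells, against a median of 1.83 over 191 like genes, and was above 96.3% of them. Oasl1 had 1.81 against 1.08 and was above 96.9% of 292 like genes. That value rests on 1 cell with 15, which is 30.6% of all Oasl1 value, and 5 of its 27 cells held 50%. Rsad2 had 1.55 against 1.07 (5 in the highest cell of 42, with 11 cells holding 50%), and Ifit1 1.5 against 1.08 (9 in the highest cell of 46, with 12 holding 50%).

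Among members detected more widely, Isg15 had 1.65 per detecting cell against 1.14, Gbp2 1.77 against 1.15 and Trim25 1.81 against 1.34. The highest 1% of cells held 28.8% of Isg15, 30.4% of Gbp2 and 11.7% of Trim25. By contrast Ifit2, Oas1a, Eif2ak2 and Ifi35 were at or under their like genes: Ifit2 had 1.056 against 1.102 and was above 12.6% of 443 genes. No cell had an Ifit2 value above 3. How far its mean depends on which cells detect it was not tested. Of the 10199 cells 352 had any of the 9 members detected in under 1% of cells (Ifit1, Ifit3, Rsad2, Mx1, Oasl1, Oas1a, Oas2, Usp18 and Ifi44). Of these 352 cells, 325 had 1 of the 9, 23 had 2 and 4 had 3 or more. Genes this rare would mostly fall in separate cells whatever their relation, so nothing is read from these counts.

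**Figure D3:**
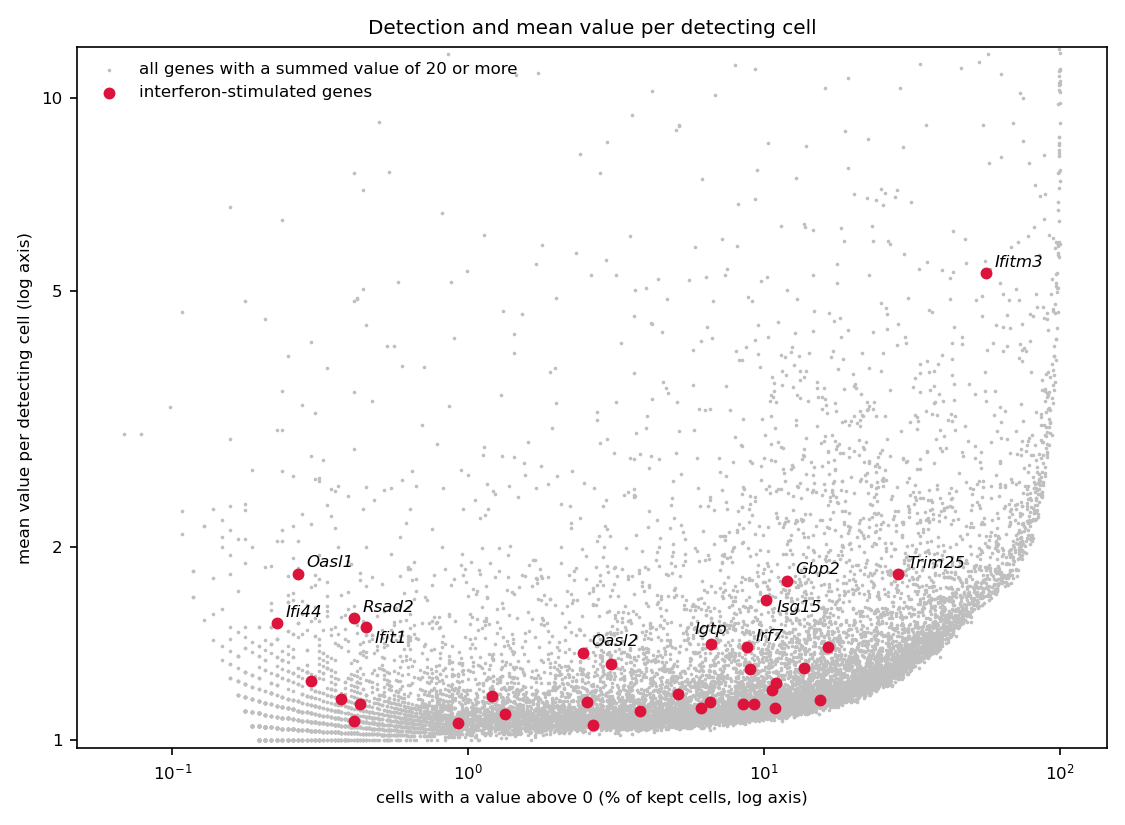
Mean value per detecting cell (y axis, log, shown up to 12) against the percentage of cells with a value above 0 (x axis, log) for all genes with a summed value of at least 20 (grey) and the 34 members (red). Ifitm3 at 5.33, Oasl1 at 1.81 and Gbp2 at 1.77 stand above most genes at a like detection, and unlabelled members lie in the grey band.

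Cells picked for high values of 16 members had, as a group, higher levels of the other 16. The 32 members in alphabetical order were dealt alternately into 2 sets of 16. The first set picked the highest 1% of cells within each of 20 types (110 cells), and the second set, which took no part in the pick, was then read. Of its 16 members, 13 had a log2 ratio of at least 1 in the picked over the other 9892 cells of the same types, against 4.05% of all genes. The median was 1.72 over the 16 and 0.00 over all genes. Igtp was at 148 CPM in picked and 15.5 CPM in other cells, Isg15 at 172.4 and 30.3 CPM, Usp18 at 9.19 and 0.637 CPM and Oas3 at 20.7 and 2.46 CPM. Usp18 and Oas3 had summed values of only 50 and 144 in the library, so their levels in the 110 cells rest on few values. The 3 under 1 were Trim25 (126 and 87.9 CPM), Ifi35 (53.2 and 32.2 CPM) and Eif2ak2 (34.8 and 20.6 CPM).

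Picked cells had a median of 2281 detected genes against 2048, and the part of detection in the ratios was not tested. Some types joined several clusters, 3 in interstitial macrophage-like and 2 in T cell-like cells. The part of differences between such clusters in the ratios was not tested either. Picking the highest 5% of cells in place of 1% left 8 of the 16 at 1 or more, against 0.773% of all genes. Outside the 34, 43 of the 82 other interferon-stimulated genes were at 1 or more in the 110 picked cells, against 4.05% of all genes, and 1 at -1 or less. Cxcl10, the chemokine that draws in T cells, was at 301 and 30.5 CPM, Gbp5 at 39.0 and 4.29 CPM, and Gbp7 at 224 and 41.5 CPM. Of genes in no list and with a summed value of at least 100, the 10 with the highest ratio were Serpina3f, Cldn10, Il18bp, Calca, Xcl1, Batf2, Fam26f, Msln, Ccdc62 and Prg4. Serpina3f was at 35.2 and 2.92 CPM, Il18bp, which binds interleukin 18, at 27.5 and 2.90 CPM, and Batf2 at 15.8 and 2.09 CPM. Such levels in 110 cells rest on few values, and how many picked cells supply each of these 10 genes was not tested. Msln was also among the leading genes of a mesothelial-like cluster, and Prg4 among those of an interstitial macrophage-like cluster of 30 cells.

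In the bulk PDGFRA+ library (171910584 reads) the members formed a low to middling set. Of the 33 listed, 14 were at 10 CPM or more, against 54.5% of the 16905 symbols, and 28 at 1 CPM or more, against 75%. The median was 5.55 CPM over the members and 13.2 CPM over all symbols. Pdgfra itself was at 184 CPM. In a bulk sample fewer cells of a kind and less RNA per cell cannot be told apart. Per kilobase, the median was 6.01 TPM against 8.47 TPM, and 9 members were at 10 TPM or more, against 46.9% of symbols.

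Ifitm3 was the most abundant member in bulk at 878 TPM (258 CPM, exact Poisson 95% interval 256 to 261). Bst2 followed at 35.1 TPM, Gbp2 at 32.1, Ifi35 at 29.3 and Irf9 at 21.7 TPM. Irgm1, Stat2, Igtp and Irf7 were between 11.0 and 14.5 TPM. At the other end, Ifi44 was at 0.15 TPM (0.215 CPM, 0.152 to 0.297), Oas2 at 0.36, Oas3 at 0.39, Trim30a at 0.43 and Oasl1 at 0.55 TPM. Of the synthetase family, Oasl2 was at 6.58 TPM and Oas1a at 1.55 TPM.

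Bulk levels were set beside those of the 1690 myofibroblast-like, lipofibroblast or matrix fibroblast-like and adventitial fibroblast-like cells of the single-cell library. Of the 33 members, 13 had a log2 ratio of at least 1 in bulk, against 20.5% of 13901 genes, and 3 at -1 or less, against 18.9%. The median was 0.57 over the members and 0.02 over all genes. Rsad2 was at 13.3 CPM (12.7 to 13.8) in bulk and at 0 in the fibroblast-like cells, at least 44.1-fold higher than a floor of 3 summed values. Oasl2 was at 8.30 against 0.702 CPM, Gbp2 at 39.4 against 8.92, Irgm1 at 15.6 against 3.31, Ifit3 at 5.55 against 0.702 and Irf7 at 9.85 against 2.31 CPM. Eif2ak2 (11.0 against 30.4 CPM), Zbp1 (1.47 against 4.51) and Trim30a (0.828 against 2.71) were the 3 lower in bulk. Ifit2 was at 12.2 CPM in bulk and 16.6 CPM in the fibroblast-like cells.

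Transcripts of other cells were present in both. Ptprc was at 5.08 CPM in bulk and 32.4 CPM in the fibroblast-like cells, Tyrobp at 5.03 and 92.8, S100a8 at 3.88 and 251, and Cd3e at 0.128 and 9.52 CPM. All 8 immune markers were lower in bulk. Pecam1 was at 6.38 and 7.12 CPM, Cdh5 at 6.47 and 5.91 and Cldn5 at 8.30 and 15.04 CPM. Epcam was at 0.588 and 2.51 CPM, Cdh1 at 1.38 and 2.81, and Sftpc at 79.1 and 436 CPM. Hba-a1, of red blood cells, was at 4125 CPM in bulk and 2.005 CPM in the fibroblast-like cells. The libraries also differed in genotype, sort, RNA extraction and in counting whole transcripts or 3′ tags, and these differences cannot be told apart.

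**Figure D4:**
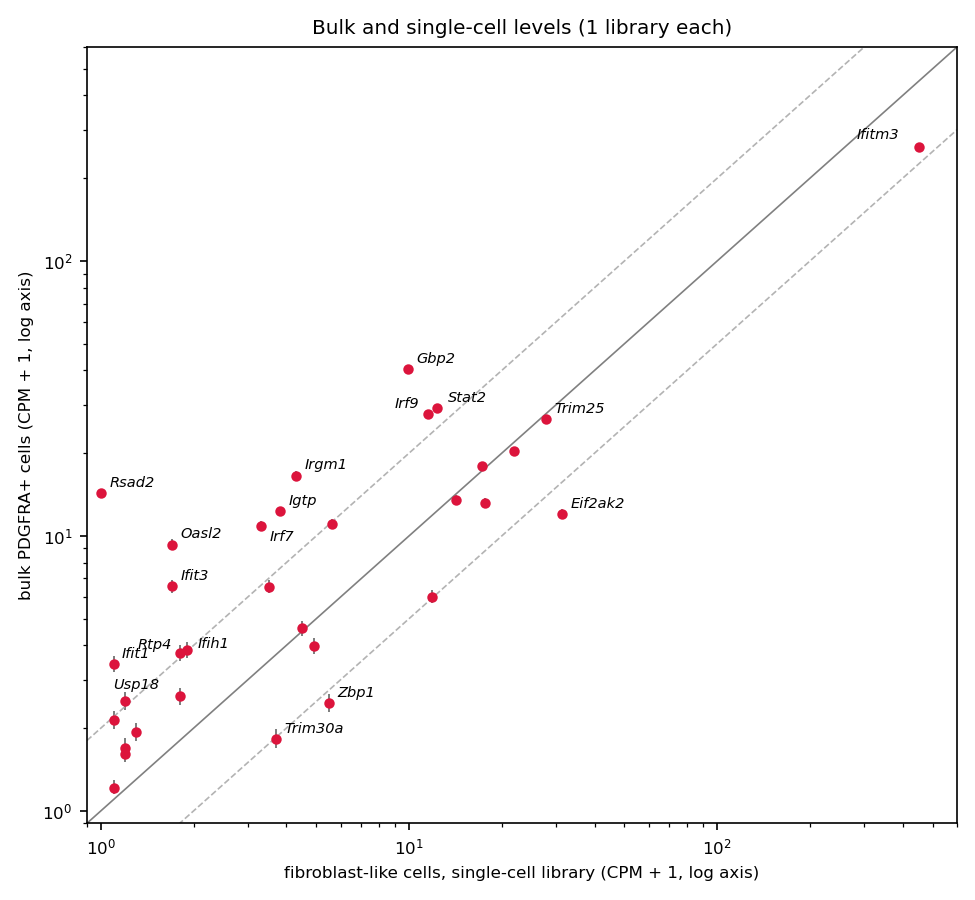
Level of 33 members in the bulk PDGFRA+ library (y axis, CPM + 1, log, bars the exact Poisson 95% interval) against that in the fibroblast-like cells of the single-cell library (x axis, CPM + 1, log), with the line of equality and dashed lines 2-fold away. Rsad2, Oasl2 and Gbp2 lie above the dashed band, and Eif2ak2, Zbp1 and Trim30a below it.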

How the data were processed

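The submitters' processing notes name Cell Ranger 5.0 and Seurat 3.2.2 for the single-cell library. For the bulk library they name Trim Galore, HISAT2, featureCounts, DESeq2 and the build mm10. The sources used here give no build for the single-cell table. Its deposited values were treated as a score, not as raw counts. They are whole UMI-like numbers, but the lowest and highest cell total differed by only 1.79-fold. A value of 2 made up 32.5% of the values above 0 in the 1000 cells with fewest genes and 12.4% in the 1000 with most. No Poisson interval was therefore put on them. The authors deposited an expected count per gene for the bulk sample, used as CPM, and a TPM, used to compare genes.

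Cells with over 10% mitochondrial values (646) and predicted doublets (461 of the rest, 4.32%, Scrublet in scanpy 1.11.5) were left out. Clusters (30 components, 15 neighbours, Leiden resolution 1, igraph 0.11.9) were built without the pathway genes. Each was named by its mean marker score. Close scores were settled by markers among the 10 leading genes, a detail set after the clusters were seen. A cluster of 98 cells stayed unnamed. Ratios used genes with a summed value of at least 20. The members and lists were chosen with earlier results of these data known. Every member was named, and further genes by role and level. Alternatives changed filters, resolution, minimum, added CPM and scaling. Steps were tested on simulated data. A few pathway genes are not reported here.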

Additional observations from a re-analysis of the deposited data

How the results depend on the processing

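Of 82 values recomputed under other settings, 72 stayed within 1.5 times of their count or inside the interval of the share. Adding 10 CPM gave 8 members higher in immune-like over mesenchymal-like cells, 11 higher and 0 lower in endothelial-like over mesenchymal-like cells, and 2 higher and 4 lower in immune-like over endothelial-like cells. The highest 5% of cells held 21.4% of the member value with the strict cell filter and 26.1% with all members. Picking the highest 5% of cells left 8 members of the reading set at a log2 ratio of 1 or more. The bulk count was 9 by deposited TPM and 28 at 1 CPM or more. A larger added CPM shrinks the ratios of low genes by construction. For the other settings the cause was not tested. Leaving out the cell with 27 members or the 253 cells with neutrophil transcripts, both chosen after seeing the data, moved none of the 9 single-cell values (6 compartment counts, the count highest in an immune type, the share and the count of the reading set) past those limits. No paired analysis was possible because each group has 1 sample. Depth limits the members detected in under 1% of cells, whose type levels rest on a few cells each.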
